A study of Homo sapiens with 24 samples.

Results

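ATF4 and the genes it switches on during the integrated stress response were followed in the established human neuroblastoma line SH-SY5Y across 8 groups of 3 RNA-seq libraries. The gene set was a list of 42 names of ATF4 targets and stress response genes, with amino acid transporters and all tRNA synthetases but NARS left out. CHOP is another name of DDIT3 and had no row of its own, so the list covered 41 of the 26485 genes in the deposited table, and 40 of these passed the filter on low counts. The groups were untreated cells at 4 h and cells given copper chloride for 4 h, and, at 24 h, untreated cells and cells given dextran-catechin (DC), TEPA, interferon gamma (IFN), DC with IFN or TEPA with IFN. Both DC and TEPA chelate copper. No doses are given, nor is it stated if the 3 libraries per group were separate cultures, so the p-values measure the spread between these libraries, which may be technical.

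The integrated stress response begins when kinases that sense different stresses phosphorylate the initiation factor eIF2, which lowers general protein synthesis while translation of ATF4 mRNA increases. ATF4 then pairs with other basic leucine zipper proteins, among them the C/EBP family, and activates genes for amino acid synthesis, redox balance, restraint of growth signalling and, when stress lasts, cell death. Much of the control of ATF4 lies in translation and in phosphorylation of eIF2, neither of which is measured by mRNA counts.

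ATF4 with a C/EBP partner binds a composite element whose core was searched here as TGATGNAA on both strands of the 250 bases before each transcription start in the RefSeq promoter table (GRCh38.p14), where 30 of the 41 genes had an entry. No promoter entry was matched for INHBE, NUPR1, PSPH, SHMT2, ALDH1L2, PYCR1, VEGFA, EIF4EBP1, C6orf48, NARS and GPT2. The core was present before 5 of the 30 genes (16.7%), and before 1061 of all 27305 genes of that table (3.89%). Some genes have several starts and thus several windows: the core was in 5 of 47 windows of the listed genes (10.6%) and in 3.14% of all windows. A match of these letters is a description and not a binding site. Of the 21 genes with an entry that were called higher with copper, 4 had the core. The stretches around it are shown for these 4, 5′ to 3′ on the strand of the gene, with the core or its reverse complement in capitals:

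JDP2: tatatagccggggcTGATGCAAcccgtccc
ASNS: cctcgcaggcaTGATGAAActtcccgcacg
HERPUD1: gacgcggcgggTTGCATCAgcccgtgccca
CEBPG: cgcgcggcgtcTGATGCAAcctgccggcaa

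The JDP2 stretch is at chr14:75427992-75428021 (plus strand), the ASNS stretch at chr7:97872458-97872487 (minus strand), the HERPUD1 stretch at chr16:56931955-56931984 (plus strand) and the CEBPG stretch at chr19:33374060-33374089 (plus strand). The core begins 16 bases before the start of JDP2, 68 before ASNS, 176 before HERPUD1 and 42 before CEBPG. The fifth gene with the core was FGF21, whose mRNA was too low to test.

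Libraries held 24569980 to 35372442 counts. Neuroblastoma markers summed to 2248 to 2892 CPM (counts scaled to a common library size) in every library, although TH, which encodes tyrosine hydroxylase, had at most 1 count in any library. Markers of epithelium summed to at most 0.772 CPM and those of leukocytes to at most 10.5 CPM, with KRT5, KRT14 and CD3E at 0 throughout. The summed markers of Schwann cells ran from 29.8 to 78.8 CPM and those of fibroblasts and endothelium from 456 to 713.5 CPM, and their part in the results was not tested. Libraries differed in the balance of GC-rich and GC-poor genes, measured as the median log2 deviation of genes with a GC fraction over 0.6 minus that of genes under 0.4. Untreated replicate 1 at 4 h stood lowest at -1.32 and copper replicate 1 at -0.64, while the other 4 libraries at 4 h lay between 0.65 and 1.38. Beside the counts they move, values are given without these libraries and with the GC trend removed.

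Copper for 4 h raised most of the list. Of the 40 tested genes, 30 rose and 0 fell at a Benjamini-Hochberg adjusted p under 0.05 in edgeR's quasi-likelihood test, against 5.85% of all 14654 tested genes called in either direction and 2.65% called higher. The median log2 fold change of the list was 1.57 and that of all tested genes was -0.02. The list was chosen with earlier results of these data known, so these shares describe it and do not test it. NUPR1 passed the filter on low counts only through the copper libraries and so had to differ; of the other 39 genes, 29 rose. The count over all 40 was 31, and included all 30 genes, without both 4 h libraries numbered 1 (5.03% of all genes). It was between 28 and 31 when any single library at 4 h was left out. Removal of the GC trend gave 36 (35 higher and 1 lower, beside 20.4% of all genes), again with all 30 included. When libraries were paired by replicate number in a fit of the 6 libraries alone it was 35, beside 18.3% of all genes. In those 6 libraries without the pairing it was 20, beside 0.438% of all genes, and PPP1R15A, SHMT2, PCK2, CTH, VEGFA, XPOT, JDP2, IFRD1, NARS and ADM2 lost the call.

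**Figure D1:**
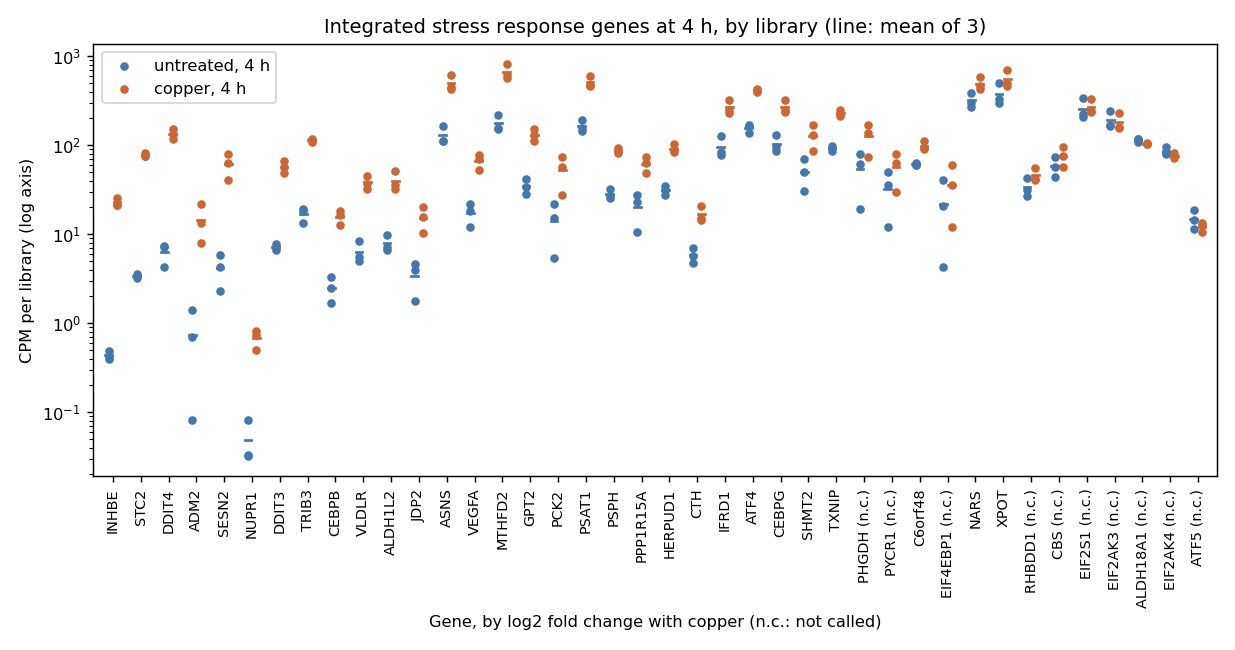
CPM of each tested gene in the 3 untreated (blue) and 3 copper-treated (orange) libraries at 4 h, on a log axis, with genes ordered by log2 fold change and short lines at the means. INHBE, STC2 and DDIT4 at the left separate by more than an order of magnitude, and the stress kinases EIF2AK3 and EIF2AK4 at the right sit at similar levels in both groups; genes marked n.c. were not called.

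Of 7 transcription factors on the list, 6 rose, or 5 of 6 without NUPR1. ATF4 itself (chr22:39519695-39522685, plus strand of GRCh38) had 135.6, 163.7 and 166.9 CPM in the untreated libraries and 396, 417.2 and 427.3 CPM with copper. The groups did not overlap, and the mean rose 2.66-fold (95% interval 2.28 to 3.11; log2 fold change 1.41, SE 0.11, adjusted p 4.65e-08). DDIT3 (chr12:57516588-57521737, minus strand), which encodes the pro-apoptotic factor CHOP, went from 6.61, 7.15 and 7.70 CPM to 48.4, 57.0 and 65.5 CPM, a rise of 2.99 on the log2 scale (SE 0.29). Every copper library was thus several times above every untreated one. DDIT3 overlaps MARS and MBD6 on the opposite strand, and the strand setting of the counting is not given, so reads from the partners cannot be told apart; 9 of the listed genes overlap a gene of the table in this way, the rest being CEBPB, SHMT2, MTHFD2, ALDH1L2, PCK2, VLDLR, ATF5 and EIF2S1.

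CEBPB, a dimer partner of ATF4, had 1.68, 2.45 and 3.26 CPM without and 12.8, 16.4 and 18.1 CPM with copper (log2 fold change 2.67, SE 0.30). CEBPG, another partner and one of the genes with the core printed above, rose by 1.36 (SE 0.14), and JDP2, a leucine zipper repressor that also holds the core, by 2.16 (SE 0.32). NUPR1, a small stress-induced chromatin protein, was counted 4 times in the 3 untreated libraries together and 60 times with copper, with a fitted log2 fold change of 3.75 (SE 0.61). Outside the copper group only 1 library reached the filter's cutoff of 0.338 CPM, so its test is not support for a rise, and its level stayed below 1 CPM in every copper library. ATF5, itself a translationally controlled relative of ATF4, was not called: it had 11.4, 14.4 and 18.6 CPM untreated and 10.6, 12.6 and 13.2 CPM with copper (log2 fold change -0.29, SE 0.18, adjusted p 0.492).

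Among 5 genes of feedback, mTORC1 restraint and survival, 4 rose. DDIT4, an inhibitor of mTORC1 signalling, went from 4.23, 7.09 and 7.38 CPM to 117.6, 131.7 and 149.9 CPM, and SESN2, a leucine sensor that also restrains mTORC1, from 2.30, 4.27 and 5.82 CPM to 40.1, 62.8 and 79.5 CPM. TRIB3, a pseudokinase that binds ATF4 and CHOP, rose from 16.97 ± 3.15 CPM (SD, n = 3) to 113.7 ± 5.60 CPM (SD, n = 3). In all these genes the lowest copper library was above the highest untreated one. PPP1R15A encodes GADD34, which recruits a phosphatase to eIF2, and rose by 1.59 (SE 0.27), from 10.7, 23.0 and 27.7 CPM to 49.2, 62.2 and 73.4 CPM. EIF4EBP1, a translation repressor, had 4.23, 20.8 and 40.9 CPM untreated and 11.9, 35.6 and 59.5 CPM with copper. These ranges overlapped and it was not called (log2 fold change 0.70, SE 0.69, adjusted p 0.79).

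All 5 tested genes of secreted factors and surface receptors rose. INHBE, which encodes the activin subunit beta E, had 0.493, 0.398 and 0.415 CPM (12, 12 and 13 counts) without and 21.2, 21.5 and 25.4 CPM with copper, a 51.9-fold rise (95% interval 26.99 to 99.8). STC2, the secreted glycoprotein stanniocalcin 2, had 3.38 ± 0.186 CPM (SD, n = 3) and 77.5 ± 3.91 CPM (SD, n = 3), a tight separation with an adjusted p of 9.88e-12. ADM2, a peptide hormone of the calcitonin family, spread more widely, from 0.0821, 0.696 and 1.41 CPM to 8.02, 13.4 and 21.6 CPM (log2 fold change 4.26, SE 0.67), and its lowest untreated value rests on 2 counts. VLDLR, a lipoprotein receptor, rose by 2.59 (SE 0.20) and VEGFA, the angiogenic growth factor, by 1.94 (SE 0.24). FGF21, a stress hormone, was counted 8 times in the copper libraries (1, 2 and 5 counts) and 0 times in the other 21 libraries. Against a floor of 3 counts over the untreated group at 4 h, this gave a ratio of 2.69, with no test and no allowance for counting error.

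Of 6 genes of serine, glycine and one-carbon metabolism, 5 rose. MTHFD2, a mitochondrial folate enzyme, had 219.9, 156.4 and 150.5 CPM untreated and 822.9, 607.6 and 574.6 CPM with copper (log2 fold change 1.93, SE 0.15). In both groups replicate 1 was the highest. PSAT1 and PSPH, the later enzymes of serine synthesis, rose by 1.64 (SE 0.12) and 1.62 (SE 0.08), and ALDH1L2, a mitochondrial folate dehydrogenase, by 2.33 (SE 0.17). SHMT2, which interconverts serine and glycine in mitochondria, rose by 1.35 (SE 0.30), but without copper replicate 3 its adjusted p was 0.0669. PHGDH, the first enzyme of serine synthesis, had 19.0, 62.1 and 80.1 CPM untreated and 72.8, 137.2 and 166.2 CPM with copper. The ranges overlapped because replicate 1 was lowest in both groups, and PHGDH was not called (log2 fold change 1.22, SE 0.46, adjusted p 0.156).

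Of 7 genes of other amino acid and mitochondrial metabolism, 4 rose. ASNS, the asparagine synthetase whose promoter holds the core printed above, went from 165.5, 110.1 and 109.8 CPM to 612.2, 452.3 and 431.2 CPM, a 3.88-fold rise (95% interval 3.15 to 4.78). GPT2, a mitochondrial alanine aminotransferase, rose by 1.92 (SE 0.19) and CTH, which makes cysteine from cystathionine, by 1.54 (SE 0.20). PCK2, the mitochondrial PEP carboxykinase, rose by 1.89 (SE 0.48), but its adjusted p reached 0.114 and the call was lost in 4 of the 6 fits that left out 1 library (untreated replicate 1 or 2, copper replicate 2 or 3). PYCR1, of proline synthesis, differed by 0.81 (SE 0.45) and CBS, the cystathionine synthase, by 0.38 (SE 0.19), with overlapping groups and no call; CBS has a near-identical copy in the genome and its count is uncertain. ALDH18A1, which acts upstream of PYCR1 in proline synthesis, had 108.4, 117.9 and 117.7 CPM untreated and 103.4, 102.9 and 105.6 CPM with copper (log2 fold change -0.14, SE 0.05, adjusted p 0.153). Each of its same-numbered pairs was lower with copper (-0.068, -0.20 and -0.16), and it was called lower with the GC trend removed (-0.12, adjusted p 0.0282), with the block added to that (adjusted p 0.0245) and without untreated replicate 1 (-0.20, adjusted p 0.0329).

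PHGDH, PYCR1, EIF4EBP1, CBS and RHBDD1 share one pattern: each was higher with copper in 3 of 3 same-numbered pairs of libraries while the ranges of the groups overlapped. For PHGDH the paired log2 differences were 1.93, 1.14 and 1.05. These 5 are the genes that the fit of the 6 libraries with the replicate number as a block added to the 30 calls, beside 18.3% of all genes called. The pairs and that fit use the same libraries, so the calls are not separate support for the pattern. The adjusted p there were 0.00161 for PHGDH, 0.00226 for PYCR1, 0.00943 for EIF4EBP1, 0.00262 for CBS and 0.00343 for RHBDD1. In PHGDH, PYCR1, EIF4EBP1 and CBS the low values were the libraries numbered 1, which also had the low GC balance. In the fit of all libraries with the GC trend removed and no block, PHGDH (adjusted p 0.0206), PYCR1 (2.95e-06), EIF4EBP1 (0.0444) and RHBDD1 (0.000497) were called, and CBS was not (0.0886). That fit called 20.4% of all genes.

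Of the remaining 7 tested targets, 6 rose. HERPUD1, an endoplasmic reticulum membrane protein of protein degradation, rose by 1.54 (SE 0.12), from 27.7 to 34.5 CPM untreated to 82.6 to 101.9 CPM with copper. TXNIP, which binds thioredoxin, rose by 1.30 (SE 0.12), and IFRD1, a transcriptional coregulator, by 1.49 (SE 0.18), from 125.8, 83.0 and 76.6 CPM to 322.5, 245.3 and 230.9 CPM. The smaller rises were those of C6orf48 (0.70, SE 0.13), which hosts small nucleolar RNAs whose annotated positions overlap it, NARS (0.61, SE 0.11), the asparaginyl tRNA synthetase, and XPOT (0.57, SE 0.16). XPOT was called although its groups overlapped, and lost the call without untreated replicate 2 or 3 or copper replicate 1, with an adjusted p of up to 0.115. RHBDD1, a rhomboid protease, was not called (log2 fold change 0.46, SE 0.16, adjusted p 0.107).

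None of the 3 listed genes upstream of ATF4 was called with copper by edgeR, with 0 of 3 also at an unadjusted p under 0.05 and 0 by DESeq2. EIF2AK3, which encodes the endoplasmic reticulum kinase PERK, had 243.9, 169.5 and 162 CPM untreated and 227.3, 158 and 155.3 CPM with copper. The 95% interval of its log2 fold change was -0.43 to 0.25, that of EIF2AK4 (the amino acid sensor GCN2) -0.34 to 0.01, and that of EIF2S1 (the phosphorylated eIF2 subunit) -0.25 to 0.38. With the GC trend removed, EIF2S1 was called higher (0.13, adjusted p 0.00646), and EIF2AK4 was called lower only when the replicate block was added to that (-0.12, adjusted p 0.0456). A further list of 16 tested kinases and factors of the eIF2 cycle had 1 gene called, EIF2S2 (log2 fold change 0.67, SE 0.12), and a median of -0.01. That share of 6.25% lies near the 5.85% of all genes called with copper.

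Copper also raised 7 and lowered 0 of 21 other ATF4 targets, with a median of 0.50. The counts of this paragraph are to be read beside the 5.85% of all genes called with copper, 2.65% higher and 3.20% lower. The 4 with the largest change were ULBP1, which natural killer cells recognise through NKG2D (4.92, SE 0.32), CHAC1, which degrades glutathione (4.84, SE 0.72), SLC7A11, the cystine carrier (3.59, SE 0.23), and ATF3, a stress-induced repressor (3.30, SE 0.23). Of 20 genes of the ATF6 and IRE1 arms of the unfolded protein response, XBP1 (1.89, SE 0.10) and EDEM1 (0.44, SE 0.10) rose and HSPA5, the chaperone BiP, fell by 0.55 (SE 0.13), and the median was -0.07.

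Among the genes called higher with IFN for 24 h were ATF4, DDIT3, SESN2 and CEBPB, but ATF4 and CEBPB lost the call with the GC trend removed. Against untreated cells at 24 h, 13 of the 40 genes rose and 0 fell (32.5% of the list), beside 18.8% of all genes called in either direction (1471 of 14654 higher). The list's median log2 fold change was 0.46, and that of all tested genes 0.0058. The 13 were ATF4, DDIT3, CEBPB, JDP2, DDIT4, TRIB3, SESN2, STC2, INHBE, VEGFA, ASNS, GPT2 and TXNIP: 4 of 7 transcription factors, 3 of 5 feedback genes, 3 of 5 secreted factors and receptors, 2 of 7 genes of other amino acid metabolism, 0 of 6 of serine and one-carbon metabolism, 1 of 7 remaining targets and 0 of 3 upstream genes.

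**Figure D2:**
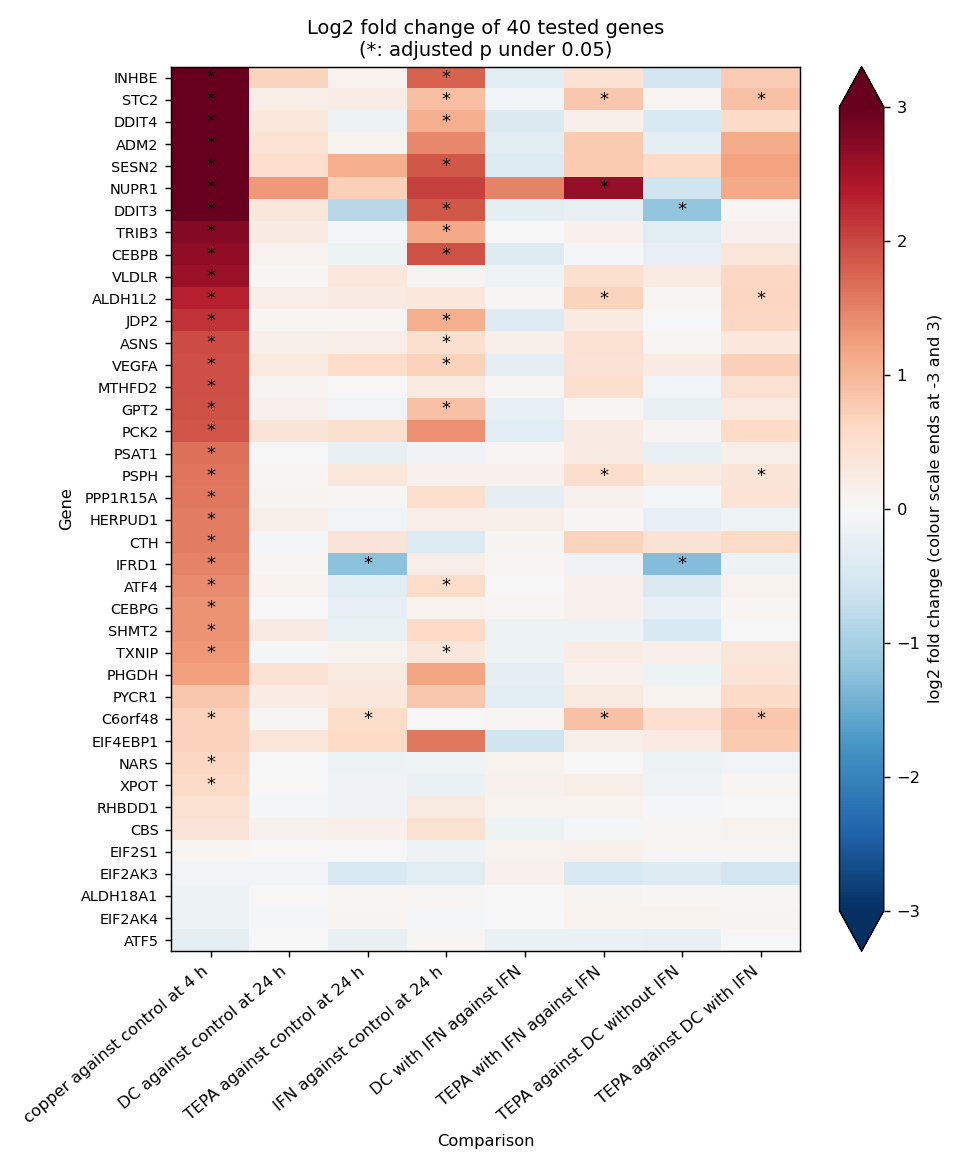
Log2 fold change of the 40 tested genes (rows, ordered by the copper change) in 8 comparisons (columns), red for higher and blue for lower, with the colour scale ending at -3 and 3 and stars at an adjusted p under 0.05. Stars fill most of the copper column (30), are fewer in the IFN column (13), and are absent from both DC columns; the columns of DC, TEPA and IFN share the untreated libraries at 24 h.

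ATF4 had 130.7, 139.1 and 117.3 CPM in untreated cells and 210.6, 194.3 and 163.3 CPM with IFN (log2 fold change 0.55, SE 0.11, adjusted p 0.000932). DDIT3 went from 5.77, 6.65 and 5.01 CPM to 27.5, 25.1 and 11.2 CPM (1.87, SE 0.28), SESN2 from 2.45, 3.32 and 2.55 CPM to 11.3, 12.9 and 6.29 CPM (1.87, SE 0.35), and CEBPB from 2.24, 2.02 and 1.85 CPM to 9.87, 8.63 and 4.64 CPM (1.92, SE 0.29). In each of these genes IFN replicate 3 was the lowest of the IFN libraries and still above every untreated one. The same library had a GC balance of -0.13, between the untreated libraries (-0.96 to -0.36) and the other IFN libraries (0.59 and 0.90). Without it, 14 genes were called, beside 24.6% of all genes. In a fit of the 6 untreated and IFN libraries alone, 23 were called, which included all 13, but so were 47.8% of all genes.

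TRIB3 rose by 1.14 (SE 0.23), DDIT4 by 1.09 (SE 0.26), INHBE by 1.78 (SE 0.41) and STC2 by 0.91 (SE 0.16). ASNS rose by 0.47 (SE 0.14), from 136.9 to 149.1 CPM untreated to 191.1 to 206.6 CPM with IFN. GPT2 rose by 0.87 (SE 0.19), JDP2 by 1.09 (SE 0.32), VEGFA by 0.69 (SE 0.24; overlapping groups) and TXNIP by 0.35 (SE 0.12). Leaving out 1 library at a time ended the call for ASNS in 3 of 6 fits (untreated replicate 1 or 3, IFN replicate 1; adjusted p up to 0.0641), for VEGFA and JDP2 in 4 (untreated replicate 1 or 3, IFN replicate 1 or 2; up to 0.187 and 0.127) and for TXNIP in 5 (all but IFN replicate 3; up to 0.16). VEGFA also lost it with DESeq2's size factors, and VEGFA and TXNIP without the filter on low counts. PPP1R15A had 11.04, 11.4 and 12.1 CPM untreated and 18.8, 19.2 and 11.4 CPM with IFN and was not called (0.51, SE 0.27, adjusted p 0.157), nor was IFRD1 (0.17, SE 0.17, adjusted p 0.455).

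With the GC trend of each library removed, 16 genes were called with IFN (15 higher and 1 lower, beside 32.1% of all genes), of which 9 were among the 13. ATF4 then had a log2 fold change of 0.09 (adjusted p 0.725), DDIT4 of 0.49 (0.0915), TRIB3 of 0.35 (0.368) and CEBPB of 0.77 (0.129), while DDIT3, SESN2, INHBE and STC2 stayed among the called genes. The GC content of the 4 genes that lost the call was 56.7% for ATF4, 58.1% for DDIT4, 60.9% for TRIB3 and 66.2% for CEBPB. Because the GC balance moves with the groups, an effect of IFN and a GC shift between these libraries cannot be told apart for those genes.

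**Figure D3:**
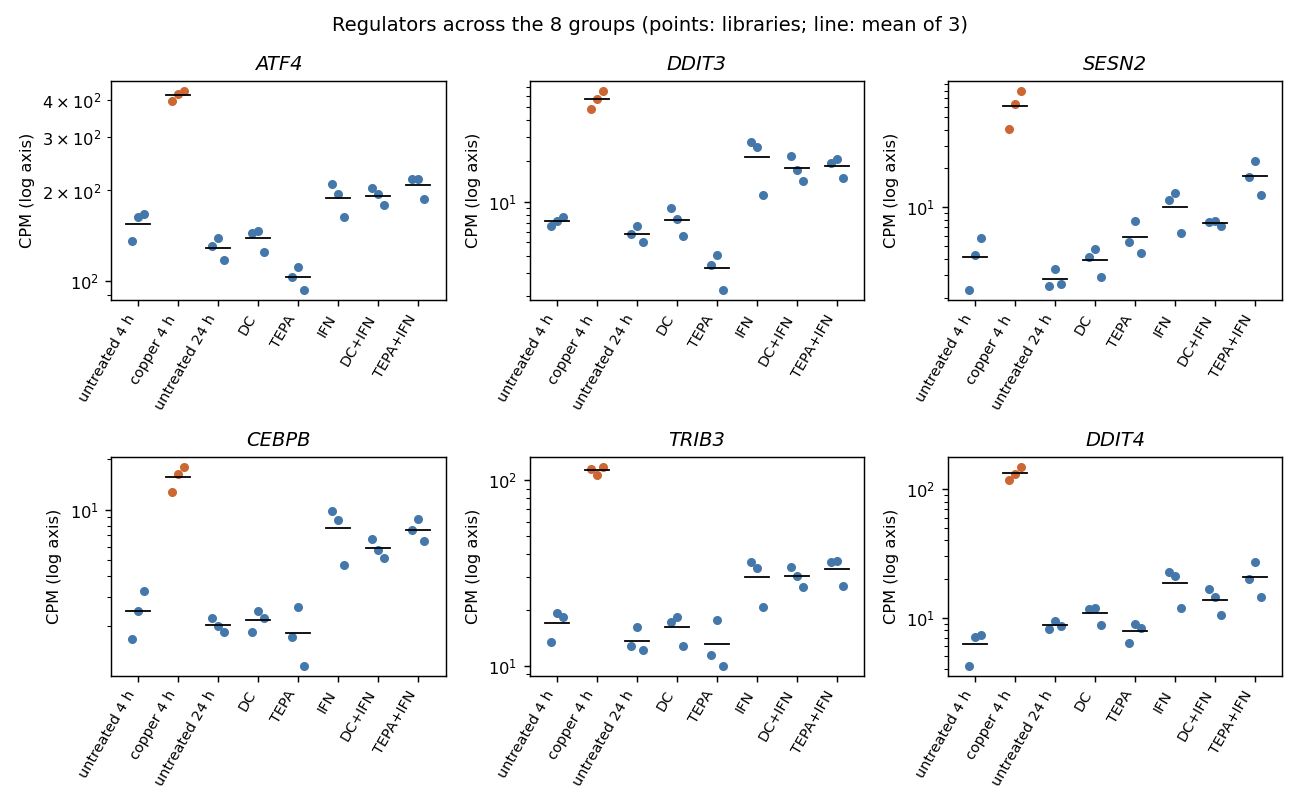
CPM of 6 regulators in every library of the 8 groups (points; copper in orange, lines at the means of 3, log axes). DDIT3 lies at 5.01 to 6.65 CPM in untreated cells at 24 h, 11.2 to 27.5 CPM with IFN and 48.4 to 65.5 CPM with copper at 4 h; TRIB3, DDIT4, SESN2 and CEBPB have the same order of means in those 3 groups.

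Among the other lists, to be read beside the 18.8% of all genes called with IFN, it raised EIF2AK2, the interferon-induced kinase PKR that phosphorylates eIF2, by 2.17 (SE 0.16), and EIF2B5 by 0.31 (SE 0.10), 2 of 16 genes. Of the 21 other ATF4 targets 6 rose and 2 fell, and the 4 with the largest change were CHAC1 (3.49, SE 0.78), BBC3, the apoptotic BH3 protein PUMA (2.21, SE 0.64), ATF3 (2.04, SE 0.22) and TRIB1, which fell by 0.84 (SE 0.15). Of the 20 ATF6 and IRE1 genes, PDIA6 (0.73, SE 0.07) and XBP1 (0.34, SE 0.10) rose. Over the same comparison the sum of the leukocyte markers went from 0.509 to 1.88 CPM to 5.59 to 7.80 CPM. Most of that was CD68, which went from 0.306, 1.21 and 0.492 CPM to 7.245, 7.62 and 5.43 CPM, while PTPRC, which encodes the leukocyte antigen CD45, was at 0.204, 0.470 and 0.203 CPM and then at 0.140, 0.144 and 0.0953 CPM, with CD3E at 0 in both groups.

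TEPA alone for 24 h changed 2 of the 40 genes, 1 in each direction, beside 1.06% of all genes. IFRD1 (chr7:112422968-112481017, plus strand) had 96.1, 88.7 and 90.7 CPM in untreated cells and 42.9, 32.0 and 42.3 CPM with TEPA. The groups were far apart, and the level fell by 1.23 on the log2 scale (SE 0.18, adjusted p 0.00131). C6orf48 rose by 0.55 (SE 0.13, adjusted p 0.0495), from 60.3, 55.3 and 66.4 CPM to 94.2, 73.8 and 98.2 CPM, but was not called in 4 of the 6 fits without 1 library (untreated replicate 1 or 2, TEPA replicate 1 or 3; adjusted p up to 0.146), nor without the filter on low counts.

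The other named genes were not called with TEPA. ATF4 had 103.6, 111.9 and 93.6 CPM (log2 fold change -0.32, SE 0.11, adjusted p 0.199), DDIT3 3.42, 4.06 and 2.23 CPM (-0.84, SE 0.29, adjusted p 0.228) and SESN2 5.40, 7.83 and 4.47 CPM (1.09, SE 0.34, adjusted p 0.174). All TEPA libraries were below the untreated ones for ATF4 and DDIT3 and above them for SESN2. In the 6 libraries alone with the replicate block, 5 genes were called, beside 1.78% of all genes: IFRD1, C6orf48, ATF4 (-0.31, adjusted p 0.0385), SESN2 (1.08, adjusted p 0.037) and EIF2AK3 (-0.46, adjusted p 0.0166), and without the block 0 were. The count was 7 with the GC trend removed, beside 8.65% of all genes. ASNS (0.20, SE 0.14), TRIB3 (-0.07, SE 0.22) and PPP1R15A (0.03, SE 0.27) had adjusted p of 0.747, 0.944 and 0.978. Of the 21 other ATF4 targets, TNFRSF10B, the death receptor DR5, rose by 1.08 (SE 0.10) and SLC7A11 fell by 1.19 (SE 0.22). The share of all genes called with TEPA was 1.06%.

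DC alone called 0 of the 40 genes by edgeR, with 0 at an unadjusted p under 0.05 and 0 by DESeq2, beside 0.0136% of all genes. The 95% intervals of the log2 fold change were -0.12 to 0.33 for ATF4, -0.25 to 0.92 for DDIT3, -0.13 to 0.45 for ASNS, -0.23 to 0.71 for TRIB3, -0.22 to 1.24 for SESN2, -0.49 to 0.65 for PPP1R15A and -0.31 to 0.42 for IFRD1. Each interval lies below the copper value of the same gene, which was measured at another time.

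The chelators were compared directly at 24 h. TEPA gave lower levels than DC in 2 of 40 genes (1.26% of all genes were called): IFRD1, with 103.4, 83.4 and 99.3 CPM under DC (log2 difference -1.29, SE 0.18, adjusted p 0.000561), and DDIT3, with 8.91, 7.495 and 5.55 CPM under DC (-1.17, SE 0.29, adjusted p 0.0478). The DDIT3 call was lost in 5 of 6 fits without 1 library (all but TEPA replicate 2; adjusted p up to 0.255) and without the filter on low counts. ATF4 differed by -0.43 (SE 0.11, adjusted p 0.0534), SESN2 by 0.58 (SE 0.34, 0.696), TRIB3 by -0.31 (SE 0.22, 0.869), ASNS by 0.05 (SE 0.14) and PPP1R15A by -0.04 (SE 0.27). With the replicate block in the 6 libraries alone 5 genes were called (2.92% of all genes), with ATF4 (-0.42, adjusted p 0.00674), C6orf48 (0.50, 0.00468) and EIF2AK3 (-0.40, 0.0198) added, and without it 0. The count was 9 with the GC trend removed, beside 9.65% of all genes.

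In the presence of IFN, TEPA raised 5 of the 40 genes over IFN alone and lowered 0 (12.5% of the list), beside 1.90% of all genes called in either direction and 0.757% called higher. With the GC trend removed the count was 16 in either direction, all 5 included, while the share of all genes called went to 12.7%. The genes added included EIF2AK3, whose log2 fold change before that removal was -0.45. STC2 went from 12.8, 12.4 and 8.83 CPM to 22.3, 22.6 and 14.9 CPM (log2 fold change 0.81, SE 0.16, adjusted p 0.00912). PSPH rose by 0.52 (SE 0.08), from 36.6 to 37.2 CPM to 51.1 to 54.2 CPM, and C6orf48 by 0.87 (SE 0.13), from 65.1, 59.8 and 54.8 CPM to 116.3, 121.7 and 91.2 CPM. ALDH1L2 rose by 0.66 (SE 0.16), and NUPR1, with 5 counts in the IFN libraries together and 34 with TEPA and IFN, by a fitted 2.63 (SE 0.62). NUPR1 is in this test only through the copper libraries, failed the filter in the libraries of the comparison alone and got no adjusted p from DESeq2; of the other 39 genes, 4 rose. The calls of ALDH1L2 and NUPR1 were lost in 5 of 6 fits without 1 library (all but TEPA with IFN replicate 3; adjusted p up to 0.15 and 0.137) and without the filter on low counts, and that of STC2 without TEPA with IFN replicate 1 or 2 (up to 0.0573). STC2 also lost the call in the libraries of the comparison alone, where 0.86% of all genes were called.

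**Figure D4:**
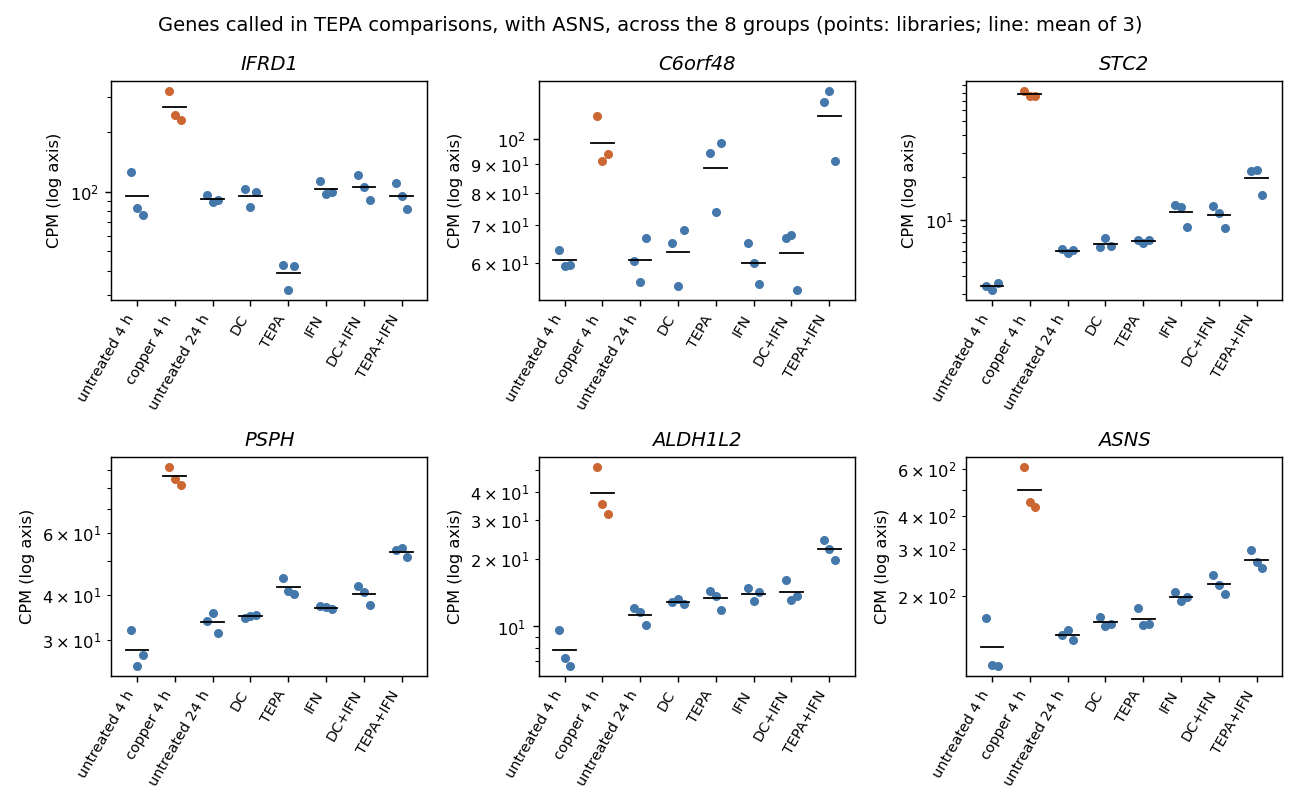
CPM of 5 genes called in TEPA comparisons, and of ASNS, in every library of the 8 groups (points; copper in orange, lines at the means of 3, log axes). IFRD1 lies at 32.0 to 42.9 CPM with TEPA alone and at 81.7 to 110.3 CPM with TEPA and IFN, while PSPH and C6orf48 have their highest 24 h means with TEPA and IFN.

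IFRD1 had 112.8, 97.1 and 99.8 CPM with IFN and 110.3, 94.7 and 81.7 CPM with TEPA and IFN, so the ranges overlapped (log2 fold change -0.11, SE 0.17). The difference between the TEPA effects on IFRD1 with and without IFN was 1.12 (SE 0.25), with an unadjusted p of 0.000231 and an adjusted p of 1 over all genes, so it failed the correction. No gene of the list passed that test by edgeR (0 of 40, with 5 at an unadjusted p under 0.05 and 0 by DESeq2), beside 0% of all genes; the 4 other unadjusted ones were ATF4 (0.46, SE 0.15), STC2 (0.59, SE 0.23), PSAT1 (0.47) and MTHFD2 (0.49). Removal of the GC trend left the IFRD1 difference at 1.08 with an adjusted p of 0.00307. SESN2 (0.79, SE 0.33, adjusted p 0.316) and ASNS (0.47, SE 0.14, adjusted p 0.0982) were not called with TEPA over IFN, nor were ATF4 (0.14, SE 0.11), DDIT3 (-0.22, SE 0.27), TRIB3 (0.14, SE 0.22) and PPP1R15A (0.13, SE 0.27). ASNS was called by DESeq2 (4.06% of all genes), in the libraries of the comparison alone (0.86%) and with the GC trend removed (12.7%). SESN2 was called with the GC trend removed. With the replicate block, ASNS was called in the fit of all libraries (2.92% of all genes). In the libraries of the comparison alone, the block gave calls for ASNS, SESN2 and ATF4 (19.7%). Same-number correlations in this comparison were 0.068, 0.54 and 0.56, not all over 0.1, so the pairing is uncertain.

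DC with IFN against IFN called 0 of 40 genes by edgeR and by DESeq2, with 1 at an unadjusted p under 0.05, beside 0.0205% of all genes. That 1 gene was among the transcription factors, which include NUPR1, with 5 counts with IFN and 14 with DC and IFN. NUPR1 is in this test only through the copper libraries. The 95% intervals were -0.20 to 0.24 for ATF4, -0.84 to 0.29 for DDIT3, -1.11 to 0.28 for SESN2, -0.45 to 0.48 for TRIB3, -0.13 to 0.45 for ASNS, -0.85 to 0.29 for PPP1R15A and -0.33 to 0.40 for IFRD1. The DC effect with IFN minus that without IFN likewise called 0 of 40, with 0 at an unadjusted p under 0.05 and 0 by DESeq2. Directly against DC with IFN, TEPA with IFN gave higher levels of 4 genes, beside 2.72% of all genes called: STC2 (0.89, SE 0.16), PSPH (0.40, SE 0.08), C6orf48 (0.81, SE 0.13) and ALDH1L2 (0.64, SE 0.16). Removing the GC trend gave 15, with 13.8% of all genes called. The ALDH1L2 call was lost in 4 of 6 fits without 1 library (DC with IFN replicate 2 or 3, TEPA with IFN replicate 1 or 2; adjusted p up to 0.16) and without the filter on low counts. SESN2, with 7.75, 7.87 and 7.22 CPM under DC with IFN and 17.2, 23.0 and 12.4 CPM under TEPA with IFN, did not overlap and had an adjusted p of 0.0593 (log2 difference 1.202, SE 0.33). SESN2 was called by DESeq2 (4.91% of all genes), in the libraries of the comparison alone (5.09%) and with the GC trend removed, where ASNS was called as well. SESN2 was also called with the replicate block, but same-number correlations in this comparison were 0.24, -0.15 and -0.15. Without removal of the GC trend IFRD1 differed by -0.15 (SE 0.17), ATF4 by 0.11 (SE 0.11), DDIT3 by 0.05 (SE 0.27), TRIB3 by 0.13 (SE 0.22), ASNS by 0.31 (SE 0.14) and PPP1R15A by 0.42 (SE 0.27), none of them called. EIF2AK3 went the other way from the called genes, at -0.58, and was not called in that fit. It was called with DESeq2's size factors (2.94% of all genes), by DESeq2 and in the libraries of the comparison alone. The replicate block and removal of the GC trend also gave it a call.

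The copper effect at 4 h and the TEPA effect at 24 h, each against untreated cells of its own time, differed in 26 of 40 genes, all with the larger value for copper, beside 3.11% of all genes. For IFRD1 the values were 1.49 with copper and -1.23 with TEPA, a difference of 2.72 (SE 0.25, adjusted p 1.43e-06). For ATF4 they were 1.41 and -0.32 (difference 1.74, SE 0.15) and for DDIT3 2.99 and -0.84 (difference 3.83, SE 0.40). Of the 26 calls, 21 held in each fit without 1 library. CTH lost the call without untreated replicate 2 at 4 h (adjusted p 0.0537) and ADM2 without untreated replicate 2 at 24 h or TEPA replicate 3 (up to 0.0718). PPP1R15A, SHMT2 and VEGFA lost it in most fits, also without any 1 of several untreated libraries, with adjusted p up to 0.0993, 0.158 and 0.0996. Agent and duration differ together here and cannot be told apart.

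Untreated cells at 24 h and 4 h differed in 4 of 40 genes, beside 9.69% of all genes. STC2 was higher at 24 h by 0.84 (SE 0.17), from 3.18 to 3.55 CPM at 4 h to 5.84 to 6.18 CPM, as were EIF2AK4 (0.31, SE 0.08) and PSPH (0.26, SE 0.08; overlapping groups), and ATF5 was lower by a log2 change of -1.01 (SE 0.18). PPP1R15A (-0.83, SE 0.27, adjusted p 0.0589), SESN2 (-0.58, SE 0.35), ATF4 (-0.27, SE 0.11, adjusted p 0.101), DDIT3 (-0.30, SE 0.28), TRIB3 (-0.31, SE 0.22), ASNS (0.16, SE 0.14) and IFRD1 (-0.05, SE 0.17) were not called. This comparison depended on 1 library: without untreated replicate 1 at 4 h, 21 genes were called, a share of the list close to the 49.8% of all genes called in that fit, and in a fit of the 6 libraries alone 0 were, with 1 gene called among all. The PSPH call was lost without any 1 of the 24 h libraries and without untreated replicate 2 or 3 at 4 h (adjusted p up to 0.215), and the EIF2AK4 call without replicate 1 or 3 at 24 h or replicate 2 or 3 at 4 h (up to 0.115). After removal of the GC trend, ATF5 was not among the 10 genes called, beside 25.9% of all genes.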

How the data were processed

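The authors deposited whole-number read counts per gene symbol, without normalization, as 1 table of all 24 libraries and 1 list per library; all 24 lists equal their column. Per the labels' protocols, a stranded mRNA kit was used. Per the submitters' processing notes, STAR 2.5a and RSEM 1.2.31 were used with build hg38; the annotation and the strand setting of the counting are not given in the sources used here.

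Computed here in R 4.3.3: filterByExpr of edgeR 4.0.16 (minimum count of 10) left 14654 genes. TMM factors scaled the library sizes, and a quasi-likelihood model with 1 mean per group was fitted to all 24 libraries (16 residual degrees of freedom, common biological coefficient of variation 0.207). Each of 12 comparisons was a contrast of group means, with Benjamini-Hochberg adjustment over all tested genes and a threshold of 0.05. CPM are counts relative to the TMM-scaled library size, given per library or as mean ± SD; SE and 95% intervals come from the fit. The fit was checked on simulated counts.

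Library totals ranged from 24569980 to 35372442, and for genes with few counts counting error adds to the spread. No pair of libraries within a group agreed within sampling noise (lowest chi-square per gene 3.70). Same-numbered libraries deviated together (every correlation over 0.1) for copper and untreated cells at 4 h (0.87, 0.35 and 0.82), for DC and untreated cells (0.15, 0.55 and 0.23), for TEPA and untreated cells (0.36, 0.57 and 0.23) and for TEPA and DC (0.12, 0.76 and 0.52), and for these the replicate block is given beside results that it changes. In these comparisons, as in the others, not every library correlated best with the library of its own number. The labels give the numbers but no shared culture or day, so the pairing is uncertain.

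The members and the other gene lists were chosen with earlier results of these data known. Every listed gene is described for copper; elsewhere the called genes are named, with ATF4, DDIT3, ASNS, TRIB3, SESN2, PPP1R15A and IFRD1 whatever their values, and at most 4 called genes of each other list. A list of mitochondrial genes for RNA quality had no rows in the table. Gene positions and GC content came from GENCODE on GRCh38. Alternatives were DESeq2 1.42.0, its size factors in edgeR, no filter, the replicate block, the libraries of a comparison alone, removal of each library's GC trend, and leaving out each library. A fit without both 4 h libraries numbered 1 was added after the data were seen.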

Additional observations from a re-analysis of the deposited data

How the results depend on the processing

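The counts of listed genes called with copper (20 to 38) and for copper minus TEPA (19 to 33) stayed within 1.5 times of their value under every setting tried, and DC called 0 genes, alone or with IFN, under each of them. The other counts moved under some settings. Without the filter on low counts, 1 gene was called with TEPA, 3 with TEPA over IFN and 1 between TEPA and DC. The shares of all genes called were 0.428%, 0.91% and 0.612%. With the GC trend removed the counts were 7 with TEPA, 16 with TEPA over IFN, 9 between TEPA and DC, 15 between them with IFN, 1 (IFRD1) for the TEPA effect with IFN minus without and 10 between untreated cells at 24 h and 4 h. Beside them, 8.65%, 12.7%, 9.65%, 13.8%, 0.0409% and 25.9% of all genes were called. With the replicate block added to removal of the GC trend, these counts were 12, 17, 13, 16, 3 and 13, and 21 with IFN. The shares of all genes were then 9.9%, 14.3%, 11.1%, 15.7%, 0.0955% and 29.8%, and 37% with IFN. In the libraries of the comparison alone, 0 were called with TEPA, 23 with IFN, 0 between TEPA and DC, 8 between them with IFN and 0 between the untreated groups. The shares of all genes were 0%, 47.8%, 0.0144%, 5.09% and 0.00725%. With the replicate block in those fits, these counts were 5, 24, 5, 7 and 0, with 19 for TEPA over IFN and 1 (IFRD1) for the difference of TEPA effects. The shares of all genes were then 1.78%, 51.7%, 2.92%, 1.76% and 0%, with 19.7% and 0.00695% for the last 2 comparisons. The replicate block in all libraries gave 4 between TEPA and DC, 7 between them with IFN, 1 for the difference of TEPA effects and 10 between the untreated groups. Beside these, 1.96%, 3.36%, 0.0136% and 15.4% of all genes were called. DESeq2 gave 5, 7 and 8 for TEPA against DC, the same with IFN, and the untreated groups, beside 2.88%, 4.91% and 17.7% of all genes. Without both 4 h libraries numbered 1, 21 differed between the untreated groups, as did 55.3% of all genes. For IFN, for the groups with IFN against each other and for the 2 untreated groups, not every same-number correlation was over 0.1. TEPA with IFN and IFN came closest, with 0.068, 0.54 and 0.56. Because the pairing is uncertain there, a call moved by the block in these comparisons is not read as a weaker or stronger effect.

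Leaving out each library gave 28 to 31 calls with copper, 9 to 14 with IFN, 1 to 2 with TEPA, 2 to 5 with TEPA over IFN, 1 to 3 between TEPA and DC, 3 to 5 between them with IFN, 2 to 21 between the untreated groups, 22 to 27 for copper minus TEPA, and 0 for the differences of DC or TEPA effects.

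Among named values, 67 changed sign under an alternative, and for 0 of them was either value called. With the GC trend removed, and again with the block added, PPP1R15A was at -0.082 and -0.082 with DC, -0.17 and -0.17 with TEPA, and -0.14 and -0.14 with IFN. Between TEPA and DC with IFN, ATF4 was at -0.069 and -0.068 and TRIB3 at -0.18 and -0.17, and IFRD1 was at -0.041 and -0.041 with DC over IFN, where PPP1R15A was at 0.0023 with both corrections. For the difference of DC effects, ATF4 was at 0.20 and 0.19, ASNS at -0.041 and -0.042, TRIB3 at 0.32 and 0.31 and PPP1R15A at 0.081 and 0.085, and IFRD1 at 0.0031 with DESeq2's size factors and 0.0032 with DESeq2. Between the untreated groups, ATF4 was at 0.071 and 0.091, TRIB3 at 0.28 and 0.33 and SESN2 at 0.067 and 0.052, and IFRD1 was at 0.17 without both 4 h libraries numbered 1.

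Leaving out 1 library moved EIF2AK3 with copper from -0.28 to 0.10 and EIF2S1 from -0.092 to 0.28; with DC, PPP1R15A from -0.075 to 0.24; with TEPA, TRIB3 from -0.34 to 0.12 and PPP1R15A from -0.13 to 0.20; with DC over IFN, ATF4 from -0.061 to 0.12, TRIB3 from -0.19 to 0.18 and IFRD1 from -0.055 to 0.15; with TEPA over IFN, DDIT3 from -0.52 to 0.013, TRIB3 from -0.067 to 0.30 and PPP1R15A from -0.067 to 0.27; between TEPA and DC, ASNS from -0.012 to 0.088 and PPP1R15A from -0.23 to 0.13, and with IFN DDIT3 from -0.090 to 0.21. For the difference of TEPA effects, TRIB3 ran from -0.024 to 0.49 and PPP1R15A from -0.12 to 0.27. For that of DC effects, ASNS ran from -0.064 to 0.056 and IFRD1 from -0.12 to 0.080, and between the untreated groups IFRD1 ran from -0.20 to 0.16. The cause of these changes was not tested. Depth limits FGF21 and NUPR1, which have few counts in most libraries.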
